A study of Mus musculus with 28 samples.

Results

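Genes of formative and primed pluripotency were examined in chromatin profiles of mouse embryonic stem cells (mESCs) with the genotype FOXD3-iKO. In this genotype the gene of FOXD3, a forkhead protein, can be knocked out on demand. The 8 genes were Otx2, Zic2, Zic5, Pou3f1, Fgf5, Fgf15, Lef1 and Cdh2. Assigned to them were the regions of the deposited tables whose centre lay nearest to the transcription start site (TSS) of one of these genes, among all protein-coding genes, and within 50 kb of it. This rule, which uses positions and no measured value, took 57 of 127646 regions, and all 8 genes had at least 1 region. The cells were grown in L2i medium, and the labels give a treatment time of 24 h. H3K27ac was profiled in asynchronous cells by CUT&Tag, where transposase is tethered through an antibody to nucleosomes bearing a mark, in 2 solvent (EtOH) and 2 tamoxifen (4HT) samples. H2BK120ac was profiled in 12 samples, 3 in each of the groups titled ED, ET, TD and TT. All of these samples carry the FOXD3-iKO genotype, and the sources used here do not say whether the line is a single clone. The meaning of the codes ED, ET, TD and TT is likewise not given there, so no letter is read as a treatment below. The replicates were merged by the authors into 1 column per group, so no replicate spread and no test could be had, and each fold below has no replicate check.

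Naive mESCs in 2i media, which inhibit the kinases MEK and GSK3, correspond to the epiblast before implantation. On leaving that state, cells pass through a formative phase, in which genes such as Otx2, Pou3f1 and Fgf5 are switched on and lineage competence is gained, to the primed state of the later epiblast. H3K27ac, an acetylated lysine of histone H3, and H2BK120ac, an acetylated lysine of histone H2B, both mark active promoters and enhancers, and regions near formative genes can carry such marks before the genes are fully active.

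Promoter sequences from RefSeq (GRCm38.p6, the assembly behind mm10) were matched by gene for 4 of the 8 genes, Otx2, Zic5, Fgf5 and Lef1. They run from 250 bases before to 50 bases after the annotated start, and are shown because these genes differ in CpG content and in whether a deposited region covers the start. CpG dinucleotides are in capitals.
Zic5, chr14:122465609-122465908, minus strand: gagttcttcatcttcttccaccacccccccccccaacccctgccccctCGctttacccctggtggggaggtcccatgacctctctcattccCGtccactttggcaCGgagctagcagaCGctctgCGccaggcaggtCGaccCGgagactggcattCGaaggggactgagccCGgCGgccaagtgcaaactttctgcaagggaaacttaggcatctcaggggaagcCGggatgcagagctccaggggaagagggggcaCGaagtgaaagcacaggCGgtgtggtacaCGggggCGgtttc
Otx2, chr14:48667595-48667894, minus strand: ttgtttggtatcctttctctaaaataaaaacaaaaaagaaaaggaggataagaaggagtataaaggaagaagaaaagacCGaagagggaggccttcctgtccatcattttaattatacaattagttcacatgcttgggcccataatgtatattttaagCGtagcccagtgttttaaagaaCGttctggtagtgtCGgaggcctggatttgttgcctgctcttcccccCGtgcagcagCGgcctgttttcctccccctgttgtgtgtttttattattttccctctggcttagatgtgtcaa
Fgf5, chr5:98253934-98254233, plus strand: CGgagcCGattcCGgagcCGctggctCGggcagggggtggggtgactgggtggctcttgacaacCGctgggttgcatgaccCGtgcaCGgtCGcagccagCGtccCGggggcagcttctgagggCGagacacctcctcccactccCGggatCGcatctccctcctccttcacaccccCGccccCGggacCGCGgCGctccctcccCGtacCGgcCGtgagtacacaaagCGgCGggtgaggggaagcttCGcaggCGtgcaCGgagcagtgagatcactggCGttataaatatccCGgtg
Lef1, chr3:131110047-131110346, plus strand: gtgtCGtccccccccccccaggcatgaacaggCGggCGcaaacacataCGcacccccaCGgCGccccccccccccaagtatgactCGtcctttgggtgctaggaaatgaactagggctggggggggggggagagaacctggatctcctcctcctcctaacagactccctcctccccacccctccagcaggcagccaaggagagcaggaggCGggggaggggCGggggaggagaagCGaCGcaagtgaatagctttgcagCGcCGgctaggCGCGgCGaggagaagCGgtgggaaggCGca
The Fgf5 window held 29 CpG and the Lef1 window 18, against a median of 13 over the 17492 promoters of protein-coding genes taken 1 per gene. The Zic5 window held 15 and the Otx2 window 6. A deposited region overlapped the Zic5, Fgf5 and Lef1 windows, and none overlapped this Otx2 window. The table lists 4 starts each for Otx2 and Lef1, and the windows printed are those of the outermost start, which was used for distances. Of the other Otx2 windows, that of the start 2535 bp downstream was overlapped by 1 deposited region and held GGATTA once, from base -211. A set of 5 short motifs was searched on both strands. The forkhead motif GTAAACA (in 2.93% of all promoters), the octamer ATGCAAAT (1.72%), the OTX motif GGATTA (6.50%) and the TCF/LEF motif CTTTGAT (3.28%) had no match in the 4 windows printed. The TATA box letters TATAAA (13.3%) matched once in the Otx2 window, starting at base -192, and once in the Fgf5 window, at base 35 after the start. These are matches of letters, and their absence says only that the letters are not in the window.

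Depth and cell identity were checked first. The commonest value of each column was read as that of 1 fragment. It implied 6.08 M fragments for H3K27ac EtOH, 4.82 M for 4HT and 2.25 to 2.43 M for the H2BK120ac columns, where the lowest values were 0.25 of the commonest, so pile-ups there rest on that reading. Most regions therefore have low pile-ups, and the intervals below (95%, Clopper-Pearson form, made from pile-ups and given as ratios) cover counting error only. Fragment numbers given below are pile-ups, that is coverage in units of 1 fragment. A wide region can hold more fragments than its pile-up, so these intervals are approximate. For 9 mESC marker genes, among them Pou5f1 and Nanog, gene means lay at a median percentile of 88.2 of 17685 genes in H3K27ac EtOH, and none was at 0 in any column. The same percentile was 33.2 for 8 fibroblast feeder markers, 23.8 for 8 neuroectoderm genes and 21.3 for 8 primitive endoderm genes. The feeder markers were divided, with Fn1 at 92.9, Col3a1 at 75.8 and Vim at 74.1, and the rest at 34.3 or below. The mESC markers were divided too, with Utf1 at 68.6, Klf4 at 58.2 and Esrrb at 44.2, and the rest at 86.4 or above. Foxd3, the targeted gene, had a mean over its 20 regions of 1.19 in EtOH and 2.23 in 4HT for H3K27ac. For H2BK120ac it had 0.967, 1.43, 0.682 and 0.908 in ED, ET, TD and TT. A coverage of chromatin marks around the gene does not check its deletion.

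The genes formed an ordered series of levels that ran from Zic5 down to Fgf5. A gene's level is its mean coverage in CPM, averaged over its regions with missing values counted as 0. It is a mean and not a sum, so it does not add up over the number of regions. A single fragment can give the same value in a narrow and in a wide region. How far the level depends on region width was not tested. Averaged over all 6 columns it was 0.936 for Zic5 (percentile 90.0 of all genes), 0.708 for Zic2 (82.7) and 0.547 for Otx2 (73.5). Lef1 had 0.289 and Cdh2 0.285, near percentile 41.8 and 41.2. Pou3f1 had 0.141, Fgf15 0.133 and Fgf5 0.107, at percentile 12.8 or below. The ranges of neighbours in this order overlapped across the 6 columns, as in 0.410 to 1.39 for Zic5 against 0.455 to 0.941 for Zic2.

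**Figure D1:**
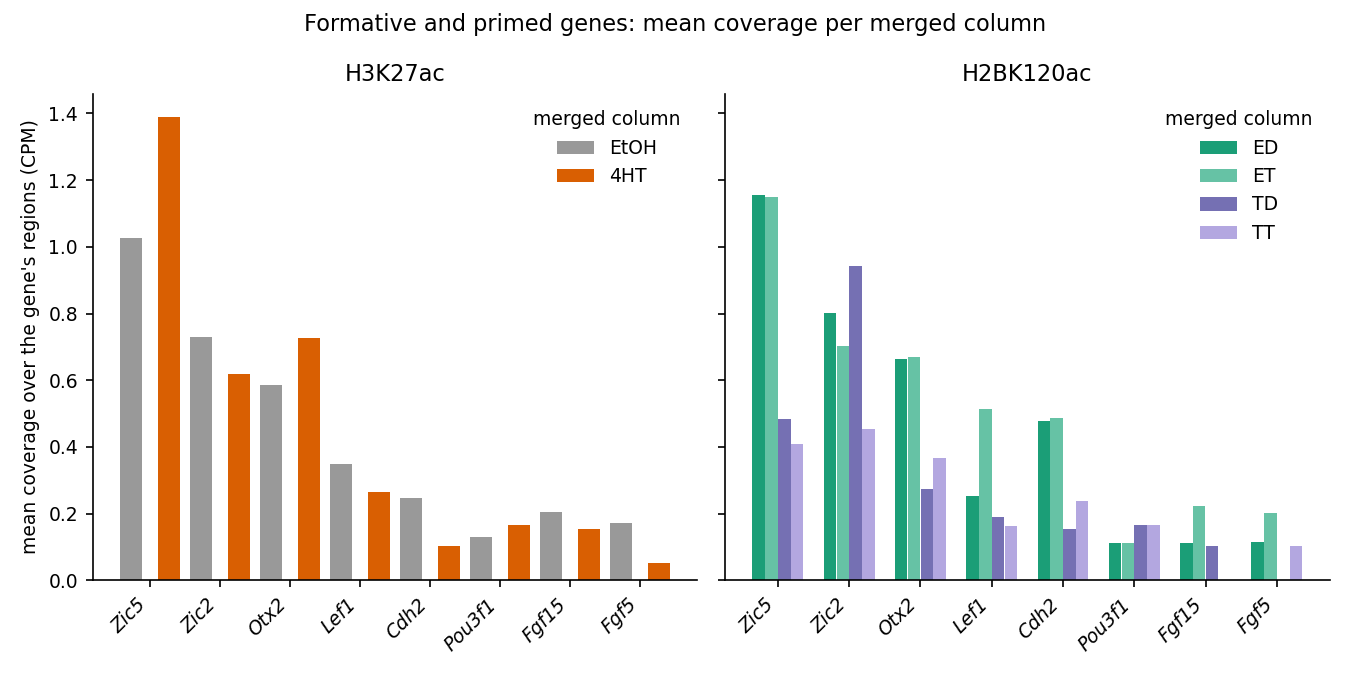
Mean coverage in CPM over each gene's regions (vertical axis) for the 8 genes, with 1 bar per merged column, H3K27ac on the left and H2BK120ac on the right. Zic5 reached 1.39 in H3K27ac 4HT, and its H2BK120ac bars were 1.16 in ED and 1.15 in ET against 0.484 in TD and 0.410 in TT.

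Zic5 and Zic2 encode zinc finger transcription factors and are neighbours on chromosome 14. Zic5 (122459160 to 122465658, minus strand) had 13 regions and Zic2 (122475384 to 122480328) had 1, since the nearest-TSS rule divides the locus between them. In H3K27ac the Zic5 mean was 1.03 in EtOH and 1.39 in 4HT, a ratio of summed coverage of 1.35 (0.99 to 1.85). In H2BK120ac it was 1.16 in ED and 1.15 in ET but 0.484 in TD and 0.410 in TT, so both T columns lay below both E columns. The ratio was 0.42 for TD over ED (0.21 to 0.79) and 0.36 for TT over ET (0.17 to 0.70). Among genes, this moved Zic5 from percentile 96.9 in ED and 96.0 in ET to 68.4 in TD and 56.3 in TT.

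A group of 5 distal regions, 31 to 49 kb from the Zic5 TSS and outside annotated protein-coding gene spans, held much of this coverage (a group formed after the values were seen). Their share of the summed coverage of Zic5 was 75.6% in EtOH, 74.4% in 4HT, 68.7% in ED and 70.4% in ET, but 58.9% in TD and 43.7% in TT. Because Zic5 lies on the minus strand, they are beyond its 3' end, on the side away from Zic2. The strongest, chr14:122415991-122416927, had 4.25 in EtOH and 6.96 in 4HT for H3K27ac, at percentile 99.5 of all regions. Its H2BK120ac was 2.13, 3.10, 2.34 and 1.02 in ED, ET, TD and TT, so TD lay between the E columns and TT alone was below them. The region at chr14:122432451-122432801 had the clearest split, with H2BK120ac of 2.45 in ED and 3.47 in ET against 0.103 in TD and 0.415 in TT. Its ratio was 0.042 for TD over ED (upper bound 1.03) and 0.120 for TT over ET (0.0027 to 0.899). H3K27ac at the same region was 2.12 in EtOH and 3.24 in 4HT, a ratio of 1.53 (0.684 to 3.48). At chr14:122434037-122434775 H2BK120ac was 2.93, 2.40, 0.853 and 0.481 in ED, ET, TD and TT, and H3K27ac was 2.11 in EtOH and 1.73 in 4HT. The region at chr14:122423605-122423766 had 1.74 in ED and 0.671 in ET and no coverage in TD or TT. Summed over these 5 regions, H2BK120ac was 10.3, 10.5, 3.70 and 2.33 in ED, ET, TD and TT.

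Near the starts of both genes the columns differed less. The promoter region of Zic5, chr14:122464659-122465774, which spans the TSS, had 1.27, 1.01, 1.0 and 0.688 in ED, ET, TD and TT, and 0.932 in EtOH against 1.0 in 4HT for H3K27ac. The single region of Zic2, chr14:122473810-122475902, is 2093 bp wide, the widest of the 57, and spans the start, with its centre 529 bp before it. It had 0.801, 0.703, 0.941 and 0.455 in ED, ET, TD and TT, so the T columns lay on both sides of the E columns. For H3K27ac it had 0.729 in EtOH and 0.619 in 4HT, a ratio of 0.85 (0.13 to 4.70). Among their paralogs, Zic1 had an H2BK120ac mean of 0.251 in ED and 0.350 in ET against 0.0457 in TD and 0.104 in TT. Zic4, its neighbour on chromosome 9, had 0.286 and 0.346 against 0.0439 and 0.0592. Both are at about 1 fragment or less per region.

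**Figure D2:**
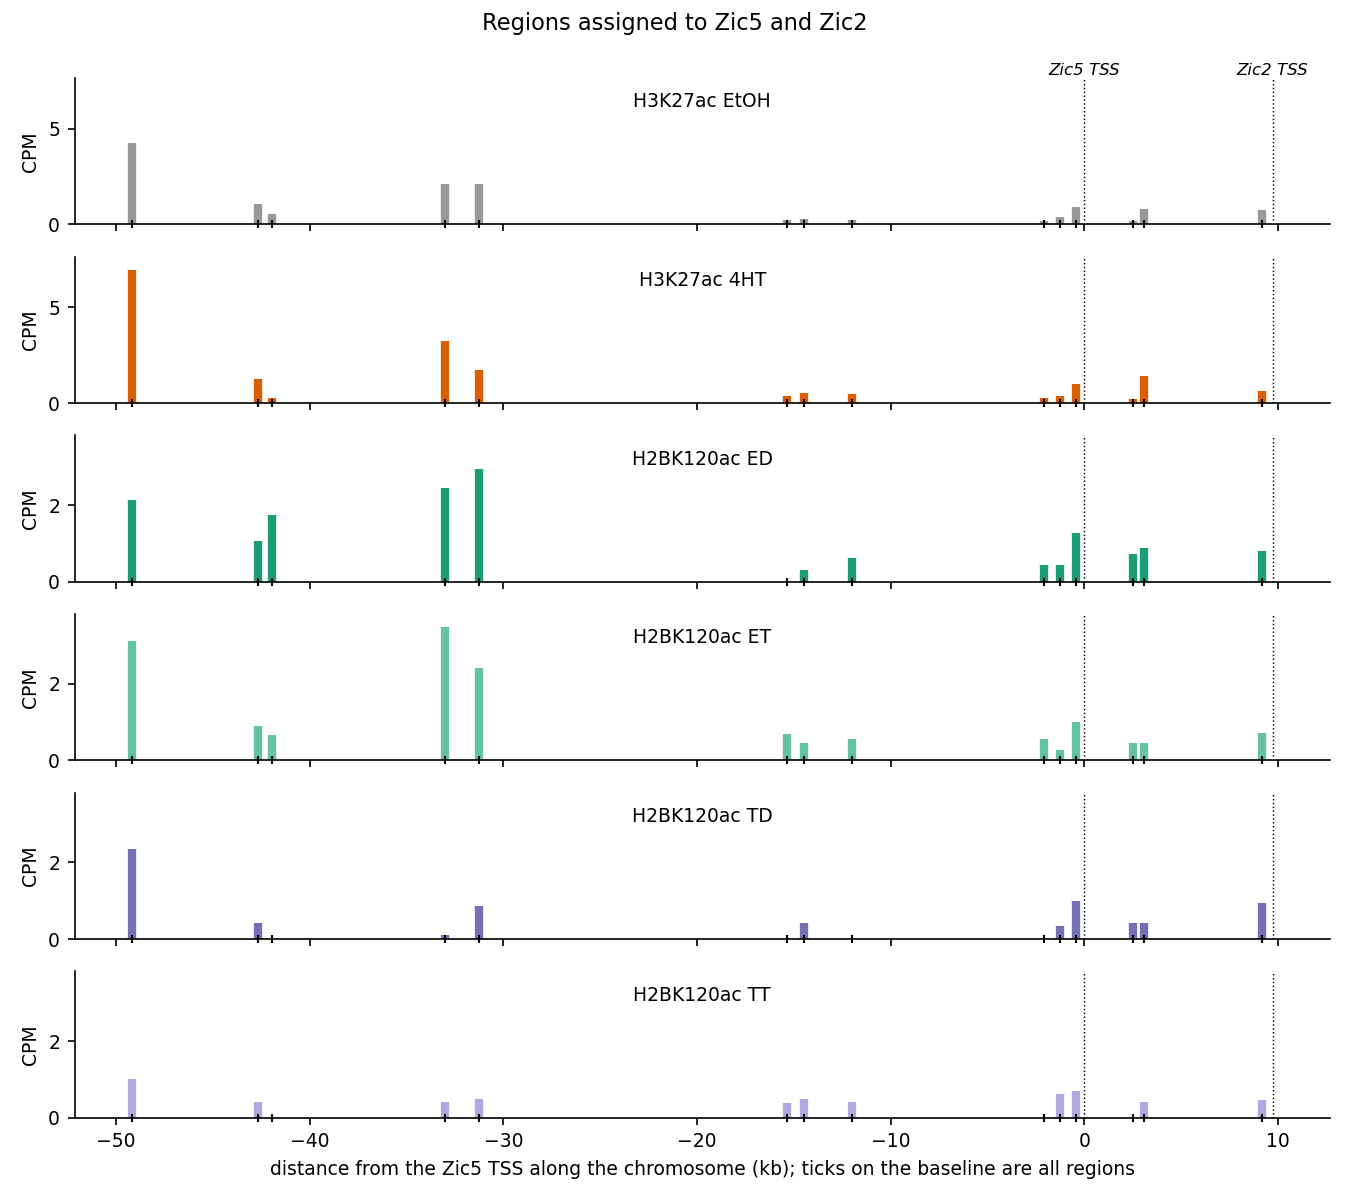
Coverage in CPM (vertical axis, 1 panel per merged column) of the 14 regions assigned to Zic5 and Zic2, by distance in kb from the Zic5 TSS along the chromosome. The group of bars 31 to 49 kb to the left is tall in both H3K27ac panels and in ED and ET, and shorter in TD and TT except for the leftmost bar of TD at 2.34.

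The 50 kb limit shaped the Zic5 values. Just inside it lay the strongest region above, at 49200 bp, and an Otx2 region at 49088 bp. Just outside, within 60 kb, were 8 regions nearest to one of the genes. One of them, chr14:122406697-122407166, at 58727 bp from the Zic5 TSS, went the other way, with H2BK120ac of 0.401 in ED and 1.21 in ET against 4.79 in TD and 4.20 in TT. So did chr3:131054421-131054616, at 55779 bp from the Lef1 TSS, with 0.334 and 0.445 against 0.823 and 0.783. With a limit of 100 kb the Zic5 log2 fold, on the log2(value + pseudocount) scale used for folds between genes, was -0.44 for TD over ED and -0.50 for TT over ET. At 50 kb these were -0.82 and -0.94, and at 20 kb -0.45 and -0.30. With the strongest region alone in place of the mean, the fold for TD over ED turned to 0.11.

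Otx2, which encodes a homeodomain factor that redirects OCT4 to formative enhancers, had 9 regions and none with its centre within 1 kb of the TSS used here (chromosome 14, 48656781 to 48667644, minus strand). The nearest other protein-coding TSS, that of Tmem260, was at least 208962 bp from each of them. The gene mean was 0.585 in EtOH and 0.727 in 4HT for H3K27ac, a ratio of 1.24 (0.73 to 2.10). For H2BK120ac it was 0.664, 0.669, 0.273 and 0.367 in ED, ET, TD and TT. Again both T columns lay below both E columns, with ratios of 0.41 (0.13 to 1.15) for TD over ED and 0.55 (0.20 to 1.42) for TT over ET, whose intervals include 1. Beside the annotated start 2535 bp downstream, chr14:48664976-48665093 had 0.329 in EtOH and 0.415 in TT and no coverage in the other 4 columns.

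Coverage at Otx2 was concentrated in a pair of distal regions, 1 on each side of the gene. The region 33649 bp before the start, chr14:48700823-48701765, had H3K27ac of 1.66 in EtOH and 2.56 in 4HT, a ratio of 1.54 (0.615 to 3.95). Its H2BK120ac was 0.905, 2.11, 0.492 and 1.17 in ED, ET, TD and TT, so TT lay above ED and the columns overlapped. The region 12559 bp after the start, beyond the annotated gene span at chr14:48654511-48655661, had 1.56 in EtOH and 1.44 in 4HT. Its H2BK120ac was 1.88 in ED, 1.04 in ET and 0.572 in TD, with no coverage in TT. The region at chr14:48668937-48669224, 1436 bp before the start, was the single one of the 57 with both T columns above both E columns. It had 0.254, 0.223, 0.370 and 0.415 in ED, ET, TD and TT, all at or below 1 fragment. The paralog Otx1 had 0.437 in ED and 0.446 in ET against 0.0833 in TD and 0.157 in TT.

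**Figure D3:**
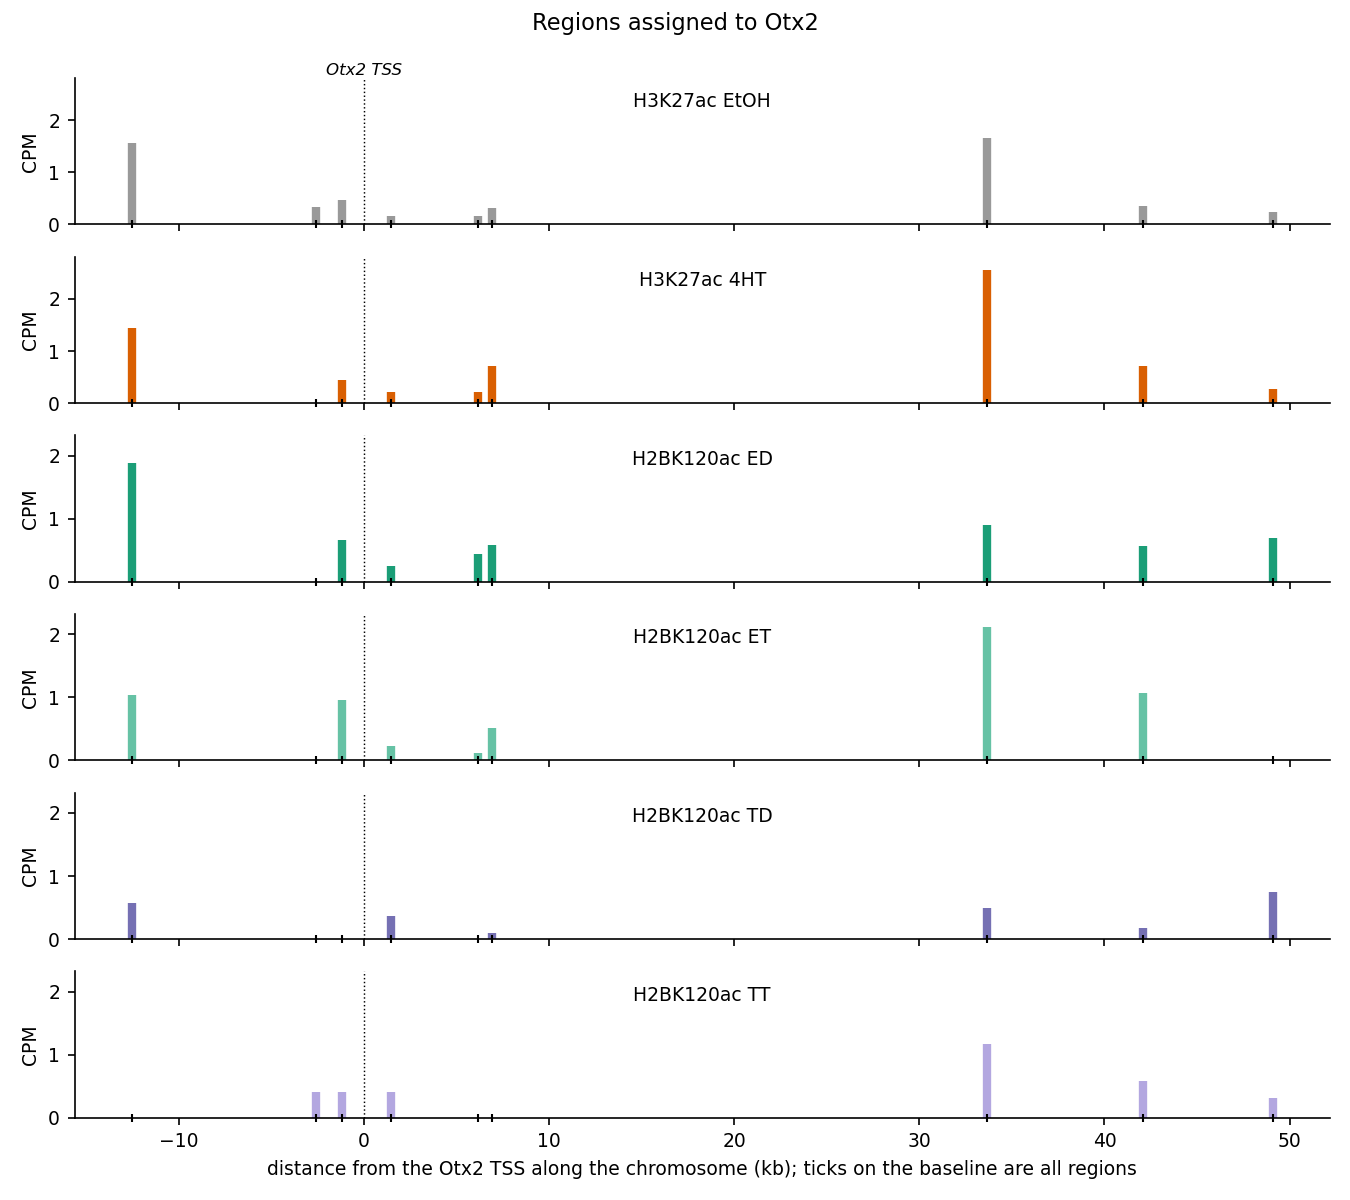
Coverage in CPM (vertical axis, 1 panel per merged column) of the 9 regions assigned to Otx2, by distance in kb from its TSS along the chromosome. The tallest H3K27ac bars stand 33649 bp before and 12559 bp after the start, and no region has its centre within 1 kb of the start used here.

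Pou3f1 encodes OCT6, a POU domain factor of the formative state. It was the gene with both T columns above both E columns for H2BK120ac, at 0.111 in ED and 0.111 in ET against 0.165 in TD and 0.166 in TT. The pile-ups behind these means sum to 1.25 to 2 fragments over its 5 regions. The ratio of 1.48 for TD over ED had an interval of 0.087 to 48.2. The promoter region, chr4:124656888-124657732, had H3K27ac of 0.369 in EtOH and 0.207 in 4HT, the latter being 1 fragment. Its gene mean was 0.130 in EtOH and 0.166 in 4HT. Of the related POU factors, Pou3f2 had a mean H2BK120ac of 0.649, 0.648, 0.354 and 0.264 in ED, ET, TD and TT. Pou3f3 had 0.351, 0.199, 0.269 and 0.0957, so its columns overlapped.

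The growth factor genes Fgf5, the usual marker of the formative and early primed epiblast, and Fgf15 were the lowest of the 8. Fgf5 had 4 regions (chromosome 5), and its promoter region, chr5:98253775-98254837, had H2BK120ac of 0.457 in ED and 0.812 in ET and no coverage in TD or TT. For H3K27ac that region had 0.182 in EtOH and no coverage in 4HT, although it spans 1063 bp over the CpG-rich window printed above. The gene mean for H3K27ac was 0.172 in EtOH and 0.0518 in 4HT, with summed pile-ups of 4.2 and 1.0 fragments. Fgf15 (chromosome 7) had 3 of its 4 regions within 1 kb of the start, and its H3K27ac mean was 0.204 in EtOH and 0.156 in 4HT. Its H2BK120ac mean was 0.111 in ED, 0.223 in ET and 0.103 in TD, with no coverage in TT. At summed pile-ups of no more than 5 fragments in any column, neither gene allows a direction to be read at this depth. Fgf4, the FGF ligand of naive cells, had 1.76 in EtOH and 2.01 in 4HT for H3K27ac.

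Lef1 encodes an HMG-box factor that acts with beta-catenin downstream of WNT. It had the most regions, 15, of which 6 passed a mean of 0.2 CPM for H3K27ac and 4 a mean of 0.4 CPM for H2BK120ac. Its strongest regions lay 25 to 26 kb before the start. There chr3:131084647-131085529 had H3K27ac of 1.22 in EtOH and 1.27 in 4HT, a ratio of 1.04 (0.30 to 3.51). H2BK120ac at that region was 0.855, 1.46, 0.412 and 0.104 in ED, ET, TD and TT. The gene mean for H2BK120ac was 0.253, 0.513, 0.189 and 0.164 in ED, ET, TD and TT. Thus ET stood apart, and the ratio was 0.32 (0.10 to 0.85) for TT over ET and 0.75 (0.23 to 2.31) for TD over ED. On the pseudocount scale the Lef1 log2 fold for TT over ET was -0.70 at 50 kb and -0.12 at 20 kb. At the Lef1 start, chr3:131110187-131110488 had 1 fragment in ET, TD, TT and 4HT and no coverage in ED or EtOH. Its relative Tcf7 differed, with 0.294 in ED and 0.278 in ET against 1.02 in TD and 0.689 in TT.

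Cdh2 encodes N-cadherin, the cadherin of primed epiblast and neural cells. Its 6 regions on chromosome 18 had a mean H2BK120ac of 0.479 in ED and 0.486 in ET against 0.154 in TD and 0.239 in TT, and the columns did not overlap. The ratios of 0.32 (0.04 to 1.65) and 0.49 (0.09 to 2.10) had intervals that include 1. H3K27ac was 0.248 in EtOH and 0.104 in 4HT, a ratio of 0.42 (0.07 to 1.67) at summed pile-ups of 9.1 and 3.0 fragments. The region that holds its TSS, chr18:16809203-16809845, had H2BK120ac of 0.459 in ED and 0.473 in ET and no coverage in TD or TT. The neighbouring region inside the gene, chr18:16808062-16809076, had 0.656 in ED and 0.527 in ET, no coverage in TD and 0.415 in TT. Cdh1, the gene of E-cadherin that naive cells use, had H3K27ac means of 2.65 in EtOH and 3.11 in 4HT. Its H2BK120ac means were 0.913, 0.892, 1.30 and 1.16 in ED, ET, TD and TT, higher in both T columns.

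H2BK120ac in the T columns against the E columns, over all 57 regions, gave the main difference of the set. Summed coverage was 29.9 in ED and 34.5 in ET against 14.7 in TD and 14.2 in TT. The ratio was 0.491 (0.318 to 0.747) for TD over ED and 0.411 (0.267 to 0.623) for TT over ET, where the sums over all 127646 regions gave 1.01 and 0.924. Both T columns lay below both E columns in 23 of the 57 regions (40.4%), against 23.4% of all regions. They lay above in 1 of 57, against 12.5% of all regions. A value of 1 fragment is 0.445 CPM in ED and ET but 0.412 in TD and 0.415 in TT. Regions with equal pile-ups in all H2BK120ac columns are therefore called lower, and never higher. In TD and in TT 47 of the 57 regions were at or below 1 fragment, against 74.0% and 73.7% of all regions. Among genes, 6 of 8 lay lower without overlap (27.2% of all genes) and 1 lay higher (25.0%). These were Zic5, Otx2, Lef1, Cdh2, Fgf15 and Fgf5 on the lower side and Pou3f1 on the higher. Fgf15 had a summed pile-up of 1.0 fragment in both ED and TD, and Fgf5 had 1.03 in ED against 1.0 in TT. Pou3f1 had 1.25 to 2 fragments. No direction is therefore read for Fgf15, Fgf5 or Pou3f1.

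The regions were also divided into proximal and distal ones. Of 46 regions beyond 1 kb from a TSS, 18 were lower without overlap (24.5% of all such regions) and 1 was higher (10.2%), and their summed ratio was 0.453 (0.278 to 0.725) for TD over ED and 0.400 (0.248 to 0.629) for TT over ET. Of the 11 within 1 kb, 5 were lower (15.5% of all such regions) and none was higher, although 28.2% of all such regions were. Their ratios of 0.701 (0.238 to 1.98) and 0.479 (0.143 to 1.43) had intervals that include 1. The 5 hold a region each of Fgf15 and Fgf5, genes for which no direction is read. They also hold the Zic5 promoter region, where TD was 1.002 and ET 1.014. No direction is therefore read for the proximal regions. Coverage in both E columns and in neither T column was found in 7 regions (12.3%), against 7.76% of all regions, and the reverse in none, against 3.14%. Without the regions of Zic5 the ratio was 0.564 (0.308 to 1.01) for TD over ED and 0.454 (0.257 to 0.777) for TT over ET, so the interval of the first then includes 1.

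**Figure D4:**
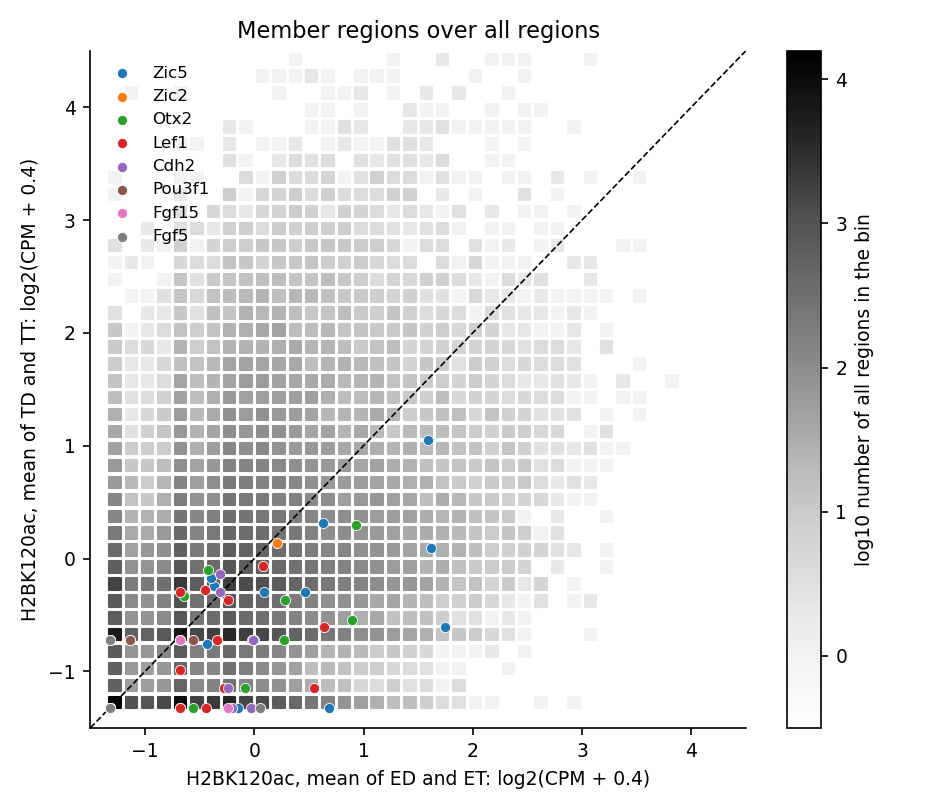
H2BK120ac of the 57 regions, coloured by gene, as the mean of ED and ET (horizontal axis) against the mean of TD and TT (vertical axis), both on log2(CPM + 0.4), over a grey count of all regions per bin. The dashed line marks equal values, and the 23 regions that were lower without overlap lie below it.

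The number of genes past 2-fold depended on the scale. As plain ratios of gene means, Zic5, Otx2, Cdh2 and Fgf5 (4 of 8) were at least 2-fold lower for TD over ED (24.3% of genes with coverage) and none was higher (24.3%). Zic5, Lef1, Cdh2 and Fgf15 (4 of 8) were lower for TT over ET (23.9%) and none was higher (24.0%). Of these, the interval stayed below 1 for Zic5 in both comparisons and for Lef1 in TT over ET. Fgf5 in TD and Fgf15 in TT had no coverage, against 1 and 2 fragments in the E columns. The folds compared between genes were taken on log2(value + pseudocount), with 0.4 for H2BK120ac and 0.2 for H3K27ac. This scale understates changes at the levels seen here, those of Zic5 included, and on it no gene reached 2-fold in any of the 5 comparisons. For TD over ED 0 of 8 genes were 2-fold higher (10.1% of all genes) and 0 lower (5.84%). There were 2 positive folds (25.0%, against 45.1% of all genes) and a median of -0.26 beside 0.00 over all genes. For TT over ET the counts were 0 higher (9.32%) and 0 lower (6.15%). There was 1 positive fold, that of Pou3f1 (12.5%, against 45.9% of all genes), and a median of -0.47 beside 0.00. At the level of regions, 15 of 57 were at least 2-fold lower in TD than in ED (22.0% of all regions) and 3 higher (15.3%). For TT over ET 20 were lower (22.4%) and 3 higher (14.8%). A single fragment against none already passes 2-fold in such counts. At a mean of at least 5 fragments, called well covered, 1 member region remained, the strongest one of Zic5, and it stood at that limit, with 2.15 CPM. It was 2-fold lower for TT over ET (21.6% of well-covered regions lower and 49.6% higher). The ratio there was 0.33 (0.04 to 1.57), an interval that includes 1. For TD over ED the region did not reach 2-fold (18.5% lower and 55.1% higher).

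Columns that share the first letter were compared in the same way. In ET against ED the summed ratio was 1.15 (0.82 to 1.63), with 0 of 8 genes 2-fold higher (3.89% of all genes) and 0 lower (3.65%). The median fold was 0.01, and the highest was that of Lef1 at 0.48. As plain ratios Lef1 and Fgf15 were 2-fold higher (16.5%) and none was lower (14.8%), and both intervals include 1. Of the 57 regions 9 were 2-fold higher (14.9% of all regions) and 4 lower (14.3%), and the well-covered Zic5 region was neither (10.4% of well-covered regions higher and 3.85% lower). In TT against TD the summed ratio was 0.97 (0.59 to 1.59), with 0 of 8 genes higher (3.21%) and 0 lower (2.87%) and a median of -0.03. As plain ratios Fgf5 was higher (17.1%) and Fgf15 and Zic2 were lower (14.1%), each at summed pile-ups below 3 fragments. Of the regions 8 were 2-fold higher (13.3%) and 6 lower (13.3%), and the well-covered one was neither (2.48% higher and 5.75% lower). The comparisons share columns, so these values are not independent of those above.

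H3K27ac in 4HT against EtOH addressed the induced knockout of FOXD3. The summed coverage of the 57 regions was 31.5 in 4HT and 28.2 in EtOH, a ratio of 1.12 (0.89 to 1.40) beside 1.17 over all regions. On the pseudocount scale no gene was 2-fold higher (2.43% of all genes) or lower (1.32%). As plain ratios Cdh2 and Fgf5 were lower (10.3%) and none was higher (8.37%). Zic5, Otx2 and Pou3f1 had positive folds (37.5%, against 58.2% of all genes) and the other 5 negative ones. The median was -0.18 beside 0.08 over all genes. Of the signs of the 8 genes, that of Zic5 was kept under all 10 other settings. That of Otx2 turned to -0.01 within 20 kb, and that of Pou3f1 to -0.37 within 20 kb and -0.48 with its highest region, among other settings. Lef1 turned to 0.28 with missing values left out. The sum and the median thus lay on different sides of no change: Zic5, with 13 of the 57 regions, had gene means of 1.03 in EtOH and 1.39 in 4HT. Without Zic5 the ratio was 0.903 (0.646 to 1.26). Of the 57 regions 3 were 2-fold higher (11.4% of all regions) and 5 lower (6.71%). Of 10 well-covered regions, 6 at Zic5 and 2 each at Otx2 and Lef1, none was 2-fold higher (7.68% of well-covered regions) or lower (0.739%). Their ratios ran from 0.822 at chr14:122434037-122434775 to 1.73 at chr14:122468647-122468837, and all 10 intervals include 1.

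**Figure D5:**
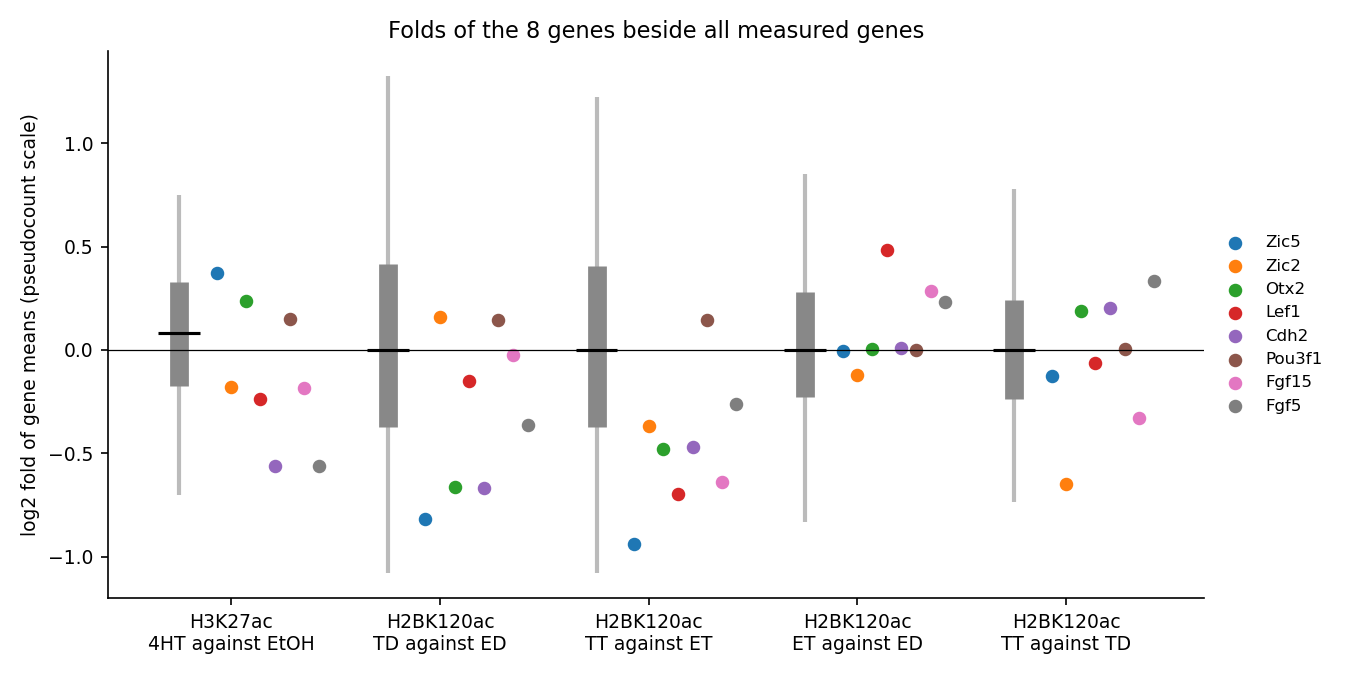
Log2 folds of gene means (vertical axis, pseudocount scale) of the 8 genes in 5 comparisons, each beside all 17685 genes, whose 25th to 75th percentiles are the thick bar, whose 5th to 95th percentiles are the thin line and whose median is the black tick. Zic5 stands at -0.82 for TD over ED and at -0.94 for TT over ET, and no gene reaches 1 or -1 on this scale.

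Other genes of the same states were set beside the 8. Of 15 further formative and primed genes 14 were measured. Of these 2, Nodal and Wnt8a, were at least 2-fold higher for TD over ED (10.1% of all genes) and for TT over ET (9.32%). None was lower (5.84% and 6.15% of all genes). Nodal, the ligand that sustains primed cells, had H2BK120ac of 0.570 in ED and 1.19 in ET against 3.55 in TD and 4.17 in TT. Wnt8a, a WNT ligand, had 0.309 and 0.431 against 1.65 and 1.57. The list median was -0.05 for TD over ED and 0.03 for TT over ET. Its summed coverage had ratios of 1.88 (1.38 to 2.60) and 1.86 (1.35 to 2.59). These rest on Nodal and Wnt8a, left out after their values were seen: without them the ratios were 0.921 (0.608 to 1.39) and 0.862 (0.525 to 1.41). In H3K27ac none of the 14 was 2-fold higher (2.43% of all genes) or lower (1.32%). Folds were positive for 9 of them (64.3%, against 58.2% of all genes). For 17 naive pluripotency genes the summed H2BK120ac ratio was 1.11 (0.96 to 1.28) for TD over ED and 0.946 (0.818 to 1.09) for TT over ET. The H3K27ac ratio of that list was 1.34 (1.24 to 1.44). For TD over ED 2 of the 17 naive genes, Klf4 and Stat3, were 2-fold higher (10.1% of all genes) and none was lower (5.84%). For TT over ET Stat3 alone was higher (9.32%) and none was lower (6.15%), again on the pseudocount scale. Folds of the 17 were positive for 7 in TD over ED (45.1% of all genes) and 8 in TT over ET (45.9%). Tet2 and Prdm14 were among the naive genes with both T columns below both E columns. Tet2 had summed ratios of 0.57 (0.35 to 0.90) for TD over ED and 0.33 (0.19 to 0.56) for TT over ET. Prdm14 had 0.41 (0.21 to 0.78) and 0.63 (0.32 to 1.21). Whether the 8 genes differ from these lists was not tested, since each value comes from 1 merged column.

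Markers of other cells were followed over the same columns. Summed coverage of the 8 fibroblast feeder genes was 20.8, 34.0, 17.2 and 18.7 in ED, ET, TD and TT, with ratios of 0.828 (0.532 to 1.28) for TD over ED and 0.550 (0.372 to 0.805) for TT over ET. Of these genes Col1a1 was at 0 in ED, S100a4 in 4HT, ET and TD, and Twist1 in TD. Others were high: in ET the mean of Fn1 was 1.28 (percentile 97.1 of all genes) and that of Col3a1 0.992 (94.1). The rest of the list lay at percentile 66.5 or below in ET. The neuroectoderm list had ratios of 0.841 (0.495 to 1.42) and 0.865 (0.541 to 1.38), and the primitive endoderm list 0.639 (0.372 to 1.08) and 0.834 (0.477 to 1.45). Coverage also differed between the columns as a whole, with 61.3% of all regions covered in ED and in ET, 51.8% in TD and 52.5% in TT. The 57 regions were covered in 38, 42, 29 and 31 cases (66.7%, 73.7%, 50.9% and 54.4%). The part of these differences in the results above was not tested. The ratios were 0.511 and 0.456 after quantile normalization, which gives all columns the same distribution.

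In width and coverage the regions of these genes were set beside all 77378 regions within 50 kb of a TSS. Their median width was 323 bp, against 268 bp, and 33.3% were at least 500 bp wide, against 24.6%. For H3K27ac 17.5% were well covered, against 13.5%. Of the 57, 16 were covered in all 6 columns (28.1%, against 27.3%) and 4 in none (7.02%, against 3.29%). The genes whose 6 values were most like those of Zic5, by Euclidean distance on the log2(value + pseudocount) scale over the 6 columns, were Dleu7 (distance 0.10), Gnpnat1 (0.25) and Yipf5 (0.31). Dleu7 had H2BK120ac of 1.20 in ED and 1.13 in ET against 0.461 in TD and 0.401 in TT.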

How the data were processed

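CUT&Tag coverage was taken from tables deposited by the authors for 4 H3K27ac and 12 H2BK120ac samples. Values are coverage signal per region, named CPM in the deposited tables, with replicates merged by the authors into 1 column per group per the file headers. The submitters' processing notes name mm10 and, for H3K27ac, featureCounts and DESeq2 without a role. Which aligner and coverage program were used is not stated in the labels or headers. No H3K27ac value lies below that of 1 fragment. A region with no value was counted as 0. A further 16 value columns named IgG matched no sample and were not used, so background was not examined. A further 12 samples, sorted by phase of the cycle, were not analysed here.

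A gene's TSS was the 5' end of its RefSeq span (GRCm38.p6), by the strand of the promoter table (17492 genes) or, without one, the end nearest the midpoint of a deposited TSS window within 5 kb (3998 genes). The remaining 410 of 21900 protein-coding genes were not used. Only gene spans were available as annotation. Pseudocounts, 0.2 for H3K27ac and 0.4 for H2BK120ac, were set near percentile 25 of the values above 0. Intervals take the pile-up, which need not be whole, as counts. With 1 merged column per group no model could be fitted and no p-value is given. Region folds and intervals were tested on simulated TD and ED values of H2BK120ac, for regions with a mean pile-up of at least 5 fragments. Most member regions lie below that level, and gene folds and H3K27ac were not simulated. Named were all 8 genes, and the strongest proximal or distal region of each but Fgf15. Also named were some of their paralogs, the formative, primed and naive genes at least 2-fold, and the 3 genes most like Zic5. Values of the paralogs Fgf3, Fgf8, Fgf10, Tcf7l1, Tcf7l2, Cdh3 and Cdh5 are not given. Other regions, and listed genes below 2-fold such as Foxd3, were named after their values were seen. The members, lists and tests were chosen with earlier results of these data known. Python 3.11.15, pandas 2.3.3, scipy 1.17.1 and matplotlib 3.10.9 were used.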

Additional observations from a re-analysis of the deposited data

How the results depend on the processing

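No paired analysis was possible because the replicates were merged into 1 column per group, and for the same reason no replicate could be left out. The summed ratios kept their side of 1 in TD against ED and TT against ET under all 6 alternatives added after seeing the data, from 0.483 to 0.665 and from 0.417 to 0.592. For H3K27ac they ran from 0.903 to 1.21, on both sides of 1. The median log2 fold stayed negative in both under all 10 other settings. In TD against ED it was -0.44 with a pseudocount 0.5 times as large and -0.14 with it doubled, -0.49 with regions above the low-value filter, over the 5 genes left by it, and -0.46 with the width-weighted mean. In TT against ET these were -0.63, -0.32, -0.68 (again 5 genes) and -0.70, and -0.88 with the highest region of each gene. In TT against TD the median was -0.14 with the filter (5 genes), -0.33 with the highest region and -0.22 with the width-weighted mean. In ET against ED it was 0.15 within 100 kb and 0.31 with the highest region. For H3K27ac it was -0.031 with missing values left out, -0.048 with the highest region, -0.32 after quantile normalization and -0.32 after median centring. Genes at least 2-fold lower numbered 2 with the smaller pseudocount and 1 with the filter in TT against ET, and 1 within 20 kb for H3K27ac. With the highest region they numbered 2 in TD against ED, 4 in TT against ET, 1 in ET against ED and 1 in TT against TD. The shares of all genes past 2-fold under these settings are not given here. The counts are therefore not read as a result about the 8 genes. As plain ratios without a pseudocount, added after seeing the data, genes 2-fold lower numbered 4 in TD against ED, 4 in TT against ET, 2 in TT against TD and 2 for H3K27ac, and genes 2-fold higher 2 in ET against ED and 1 in TT against TD. Folds of single genes changed sign in 11 of 80 cases for H3K27ac, 8 of 76 in TD against ED, 4 of 76 in TT against ET, 14 of 77 in ET against ED and 3 of 75 in TT against TD. Without Nodal and Wnt8a, the summed ratio of the other formative and primed genes turned to 0.921 (TD against ED) and 0.862 (TT against ET). The cause was not tested. Depth limits Pou3f1, Fgf5, Fgf15 and Zic2 to low summed pile-ups.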
